A study of Homo sapiens with 6 samples.

Results

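Nuclear receptors are the 38 genes described here, chosen by name from the superfamily and found in the deposited gene tables through their Entrez gene IDs, among 20824 genes listed in all. Of the 38, 35 were listed in at least 1 library and 33 passed the filter on low counts and were tested. The study sequenced polyadenylated RNA of A549, a human lung adenocarcinoma cell line, in 2 groups of 3 libraries. The control cells carried a scrambled shRNA, which the labels treat as wild type, and the other cells carried an shRNA against C19orf12, a gene for a membrane protein of mitochondria and the endoplasmic reticulum. The titles of the 3 knockdown libraries share 1 construct name, and no second shRNA was analysed here. The labels give no drug or hormone treatment and no time point for either group. Libraries are called scramble 1, 2 and 3 and knockdown 1, 2 and 3 after the numbers in their titles. The labels do not say that replicates were separate cultures, so p-values measure only the spread between these libraries.

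Nuclear receptors are transcription factors that read small fat-soluble signals. Steroids, retinoids, thyroid hormone, vitamin D, oxysterols, bile acids and fatty acids each bind a receptor of their own. For many of the receptors that do not bind steroids, the ligand exchanges a corepressor complex for coactivators on the receptor's DNA site. Many nuclear receptors bind DNA together with a retinoid X receptor. Others, called orphan receptors, have no established ligand, and the NR4A group among them is controlled mainly through how much of it is made, as immediate early genes. In lung epithelium the glucocorticoid receptor is the best studied member, and A549 is a common model of its action.

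Before the values, 4 stretches upstream of RefSeq transcript starts (GRCh38.p14, plus strand, with positions counted from the start) are shown. Each holds a textbook element, with the matched letters in capitals. The pairs of gene and element were set by hand, not by a rule, and whether an element bears on a change was not tested. NR4A3, one of the receptors that rose, is shown with 3 copies of TGACG, the core of the cyclic AMP response element, 1 of them on the other strand, in chr9:99821746-99821836 (positions -139 to -49). RARB rose as well and is shown with a DR5, the direct repeat bound by RAR with RXR, in chr3:25428170-25428262 (-93 to -1), which lies in an intron of longer RARB transcripts. NR1D2 is shown with a RORE, the element shared by REV-ERB and ROR proteins, in chr3:23945948-23946038 (-173 to -83), which lies in an intron of other transcripts of NR1D2 and of its neighbour NKIRAS1. PPARG, the receptor that fell most, is shown with AAAGGTCA, the NBRE bound by NR4A proteins, in chr3:12287142-12287229 (-226 to -139), upstream of the gene.
NR4A3: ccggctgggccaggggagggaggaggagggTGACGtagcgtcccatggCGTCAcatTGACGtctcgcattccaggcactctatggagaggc
RARB: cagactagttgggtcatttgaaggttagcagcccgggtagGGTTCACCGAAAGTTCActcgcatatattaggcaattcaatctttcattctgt
NR1D2: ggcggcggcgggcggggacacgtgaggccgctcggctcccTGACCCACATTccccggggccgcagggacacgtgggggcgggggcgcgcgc
PPARG: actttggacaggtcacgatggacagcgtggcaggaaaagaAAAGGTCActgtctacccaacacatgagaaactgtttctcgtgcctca

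Motifs were searched on both strands in the 250 bases before each start, in 80 windows of 34 members and in 35116 windows of all genes in the table; 4 members had no window. TGACG stood in 14 member windows of 12 genes and in 21.2% of all windows. NR4A3 had a further copy outside the stretch shown. Of those 12 genes, NR4A3 alone was called with all libraries. NR4A1 and NR4A2, which rose as well, were not among them, and NR4A2 had no window. A DR5 stood in 0.074% of all windows and, of the members, in RARB alone. The RORE was found in 0.265% of windows and, of the members, in NR1D2 alone; 2 copies of CACGTG, the E-box read by the clock activators and present in 6.34% of windows, lie within the NR1D2 stretch in lower case. AAAGGTCA stood in 1.05% of all windows and, of the members, in PPARG and ESRRG. These matches are letters in a window and do not show binding.

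Scramble 3 stood apart from the other libraries. CPM here are counts on a common depth after TMM. On the log2 scale, those of scramble 3 correlated across genes at 0.952 and 0.953 with scramble 1 and 2, which correlated with each other at 0.991 and with the knockdown libraries at 0.958 to 0.960. Totals of estimated counts were alike, from 10229890 to 10647587 a library. In the receptor genes the shift of scramble 3 moved with GC content: 12 of 13 tested members with transcripts under 50% GC were lower in scramble 3 than in scramble 1 and 2 on average, and 18 of the 20 others were higher. Receptor results are therefore given with and without that library. C19orf12 itself was at 42.5, 41.1 and 63.3 CPM in scramble 1 to 3 and at 24.2, 26.4 and 25.2 CPM in knockdown 1 to 3 (edgeR log2 fold change -0.95, SE 0.20, adjusted p = 0.015; -0.73, adjusted p = 3.17e-08, without scramble 3). That call was lost without any 1 of the knockdown libraries (adjusted p = 0.0755 to 0.0908). The keratins KRT8 and KRT18, CDH1 and the A549-typical enzymes AKR1B10 and ALDH1A1 were abundant in all 6 libraries, while EPCAM and KRT19 were at 2.70 CPM or less. Summed CPM of the 10 A549 markers ran from 1.95e+04 to 2.26e+04 in scramble and from 2.73e+04 to 2.79e+04 in knockdown. The summed level of 5 haematopoietic markers was at most 2.00 CPM, with CD3E at 0, that of 3 endothelial markers at most 3.90 CPM and that of 3 hepatocyte markers at most 0.558 CPM. The 4 fibroblast markers summed to 36.6 to 47.7 CPM in scramble and 23.6 to 25.9 CPM in knockdown, nearly all of it COL1A1, with COL3A1 at 0.20 CPM or less; whether this bears on a receptor result was not tested.

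A549 cells expressed 27 of the 38 receptors, taking a mean of at least 1 FPKM over the 6 libraries as expressed (FPKM, a level scaled for transcript length and depth as deposited, allows different genes to be compared). Of all listed genes, 64.3% passed that level. There were 13 receptors at 10 FPKM or more and 14 between 1 and 10 FPKM. The highest means were those of the orphan receptor NR4A1 (48.6 FPKM), the repressor NR0B1 (35.8 FPKM), the glucocorticoid receptor NR3C1 (32.2 FPKM), the estrogen-related receptor ESRRA (31.7 FPKM), the oxysterol receptor NR1H2 (30.4 FPKM) and NR2F6 (20.2 FPKM). The partner receptors RXRA and RXRB followed at 16.9 and 12.7 FPKM. Just above the threshold stood NR1H4 at 1.26 FPKM, and just below it NR1I3 at 0.962 and NR2E3 at 0.943 FPKM. THRB (0.852), the vitamin D receptor VDR (0.737), RORA (0.282) and the mineralocorticoid receptor NR3C2 (0.242) were tested but under 1 FPKM. ESRRG had 1 count in each of 3 libraries and the estrogen receptor ESR1 had 1 count in 1 library, and neither was tested. The xenobiotic receptor NR1I2, the progesterone receptor PGR and the bile acid-induced repressor NR0B2 were listed in no file; with 0 counts, a level of up to 3 counts cannot be told from 0 in a library.

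**Figure D1:**
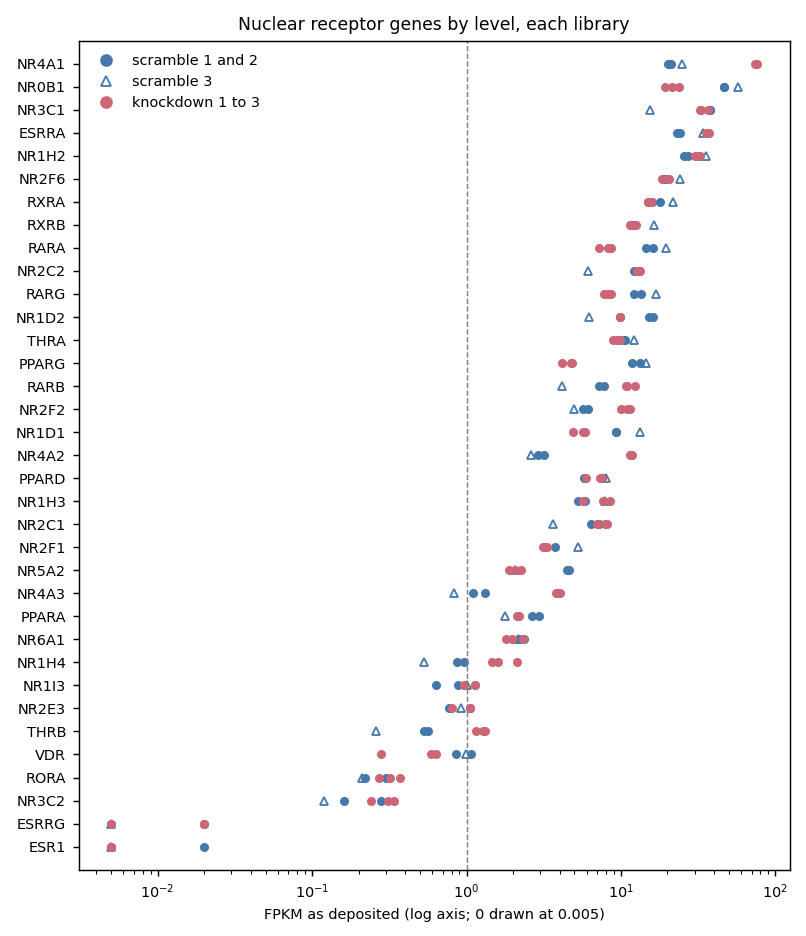
FPKM as deposited (log axis) of the 35 listed receptor genes in each library, ordered by their mean, with filled blue circles for scramble 1 and 2, open triangles for scramble 3 and red circles for the knockdown libraries; values of 0 are drawn at 0.005 and the dashed line marks 1 FPKM. NR4A1 stands highest in the knockdown libraries at 74.2 to 76.3 FPKM, and ESR1 and ESRRG lie at 0.02 FPKM or 0.

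Between knockdown and scramble, 12 of the 33 tested receptors changed by edgeR's quasi-likelihood test with Benjamini-Hochberg adjustment over all 14812 genes tested, of which 11.5% changed. NR4A1, NR4A2, NR4A3, THRB, NR1H4, NR2F2 and RARB rose, 7 receptors against 5.89% of all genes. PPARG, NR0B1, RARA, NR1D1 and RARG fell, 5 receptors against 5.64% of all genes. Of the 12, 11 had a mean of at least 1 FPKM over the 6 libraries, THRB being the exception. That mean takes in both groups: NR1H4 was at 0.79 FPKM in scramble and 1.73 FPKM in knockdown, and THRB at 0.45 and 1.25 FPKM. Of the 12, 8 changed at least 2-fold, as 6.14% of all genes did. The median log2 fold change was 0.13 over the 33 receptors and 0.02 over all genes. The CPM of the groups did not overlap in 18 of the 33 receptors, against 37% of all genes. The receptors were chosen with earlier results of these data known, so these shares do not test the list. Without scramble 3 the 12 were still called, each in its direction, and 9 more passed, in a setting that called 49.5% of all genes. Of these 9, ESRRA, NR1H2, NR1H3, NR2C1 and NR2C2 were higher and NR1D2, NR5A2, PPARA and VDR lower, which makes 12 receptors higher (25.7% of all genes) and 9 lower (23.8%). A spline for GC content and length fitted to all 6 libraries, which called 34.2% of genes, called 10 receptors higher (15.3% of genes) and 9 lower (18.9%): the 12 and, of the 9, all but NR1H3 and NR2C2. The other 12 tested receptors passed in neither setting. In 11 of the 12 receptors called with all libraries, scramble 3 lay further from the knockdown libraries than scramble 1 and 2 did, above both in the 5 that fell and below both in 6 of the 7 that rose. NR4A1 was the exception. In bulk RNA, fewer cells with a transcript and less of it per cell cannot be told apart.

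**Figure D2:**
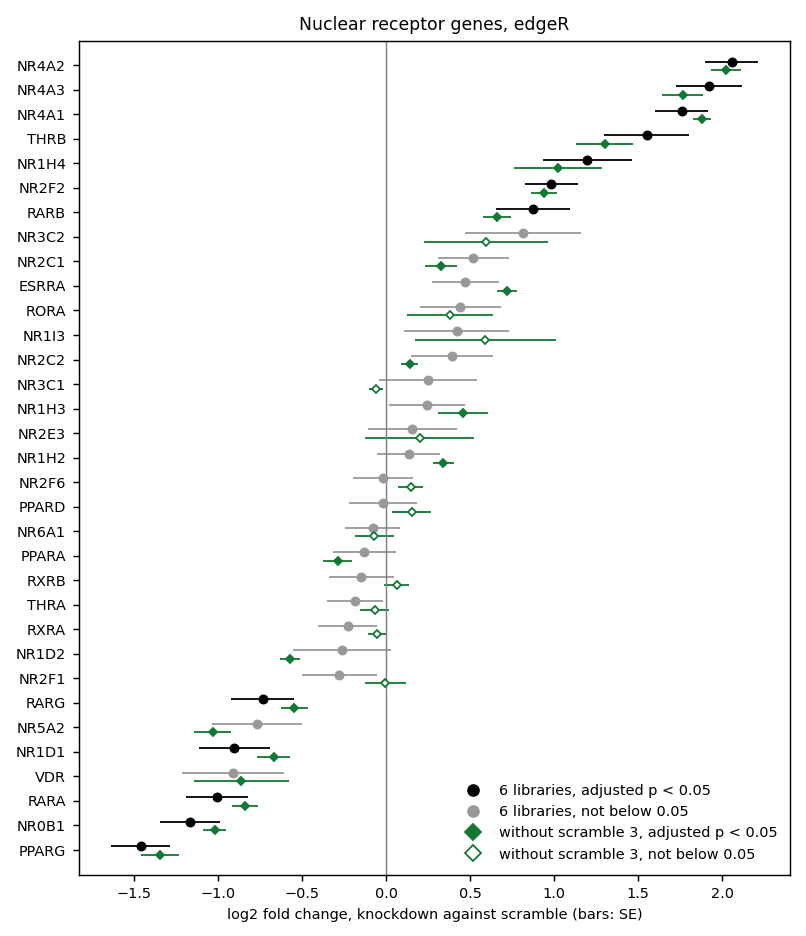
Log2 fold change of the 33 tested receptors, knockdown against scramble, by edgeR with all 6 libraries (circles, black where the adjusted p is below 0.05) and without scramble 3 (green diamonds, filled where it is below 0.05); bars are standard errors. The NR4A genes stand at the top, at 1.76 to 2.06, and PPARG at the bottom, at -1.46.

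**Figure D3:**
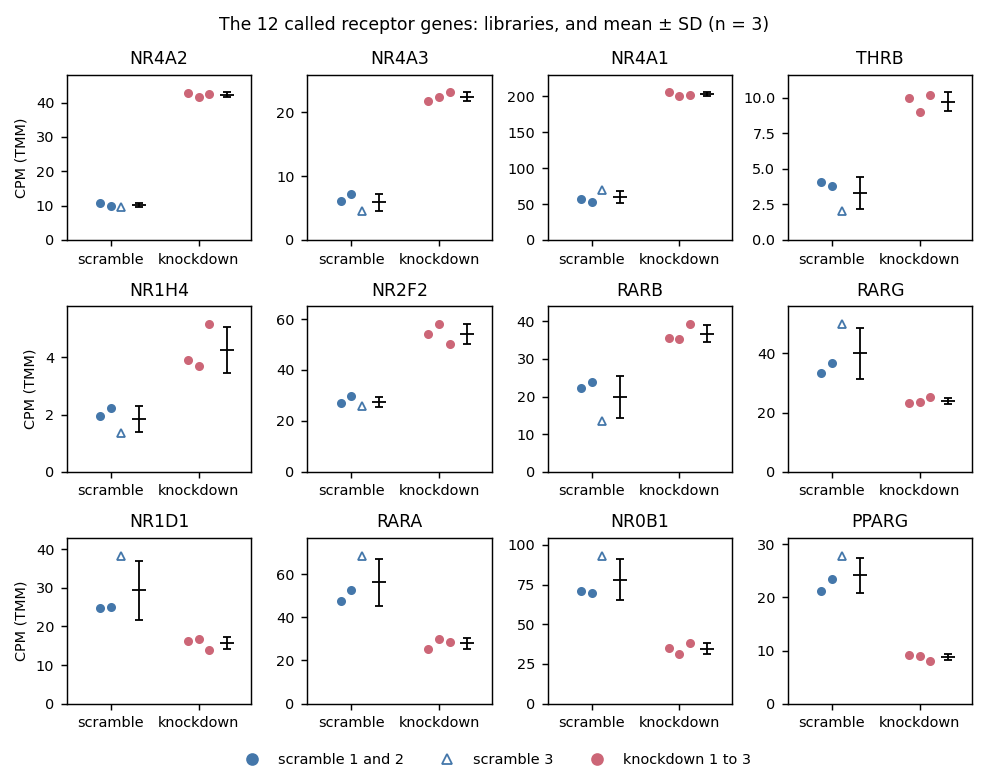
CPM scaled by TMM in each library for the 12 receptors called with all 6 libraries, ordered by fold change, with the mean ± SD of the 3 libraries of each group in black. In each panel the knockdown libraries lie on 1 side of all 3 scramble libraries.

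NR4A1, NR4A2 and NR4A3 (also known as NUR77, NURR1 and NOR1) are immediate early transcription factors that bind DNA without a ligand. NR4A1 (Entrez gene 3164, chromosome 12) was at 56.7, 53.4 and 69.6 CPM in scramble 1 to 3 and at 206, 199.8 and 202 CPM in knockdown 1 to 3. NR4A2 (Entrez gene 4929, chromosome 2) was at 10.9, 9.93 and 9.68 CPM in scramble and 42.9, 41.5 and 42.4 CPM in knockdown. NR4A3 (Entrez gene 8013, chromosome 9) was at 6.04, 7.15 and 4.55 CPM in scramble and 21.8, 22.4 and 23.1 CPM in knockdown. In all 3 genes the lowest knockdown library lay far above the highest scramble library, and the knockdown libraries were nearly level with each other. NR4A1 rose 3.38-fold (log2 fold change 1.76, SE 0.16, adjusted p = 0.000181 by edgeR), NR4A2 4.16-fold (2.06, SE 0.16, adjusted p = 7.03e-05) and NR4A3 3.80-fold (1.92, SE 0.20, adjusted p = 0.000352). Without scramble 3 the values were 1.88, 2.02 and 1.76 (adjusted p = 2.52e-18, 2.79e-14 and 4.93e-11). The calls of all 3 genes held when any 1 library was left out.

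The summed NR4A level was higher in the knockdown libraries, and the shares of its members were close in both groups. Summed over the family, 26.0 ± 1.93 FPKM in scramble became 90.7 ± 1.25 FPKM in knockdown (SD, n = 3 each). NR4A1 made up 84.5 ± 2.78% of that sum in scramble and 82.9 ± 0.203% in knockdown, a difference smaller than the spread of the scramble libraries. NR4A3, whose upstream stretch holds the TGACG copies shown above, made up 4.23 ± 1.23% and 4.29 ± 0.168%. NR4A1 was also the receptor whose mean transcript length, which RSEM weights by isoform abundance, separated the groups, at 2781, 2772 and 2723 bases in scramble and 2624, 2623 and 2634 bases in knockdown. Groups were apart in length in 1 of 33 receptors and in 6.48% of all genes, and 0 receptors shifted by 1.1-fold or more with groups apart, against 0.478% of all genes.

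Other immediate early genes were on balance lower, unlike the NR4A genes. Of 10 tested, 1 rose and 6 fell, against 5.89% and 5.64% of all genes, with a median log2 fold change of -0.79 against 0.02 for all genes. FOS rose (0.76, adjusted p = 0.0355 by edgeR), while JUN (-1.22, adjusted p = 0.00243), FOSL1 (-1.18), ATF3 (-1.05), KLF6 (-0.75) and IER3 (-0.83) fell, as did EGR1 (-1.2, adjusted p = 0.0264), which was near 2 CPM in scramble. IER2 (-0.49, adjusted p = 0.144) and JUNB (-0.36, adjusted p = 0.276) did not pass with all libraries and passed without scramble 3 (-0.27, adjusted p = 0.000346, and -0.15, adjusted p = 0.0279). The calls of KLF6 and IER3 were lost without any 1 of the knockdown libraries (adjusted p = 0.0712 to 0.0833 and 0.0803 to 0.115). Whether those of FOS and EGR1 held without 1 library other than scramble 3 was not checked. Without scramble 3, 1 of the 10 was higher and 8 lower, against 25.7% and 23.8% of all genes.

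NR1D1 and NR1D2 encode the REV-ERB proteins, repressors in the circadian clock that compete with ROR proteins for the RORE. NR1D1 (Entrez gene 9572, chromosome 17) was at 24.9, 25 and 38.3 CPM in scramble 1 to 3 and at 16.3, 16.8 and 13.9 CPM in knockdown 1 to 3. Every knockdown library was below every scramble library, and scramble 3 was the highest of all. NR1D1 fell to 53.3% of its scramble mean (log2 fold change -0.91, SE 0.21, adjusted p = 0.0236 by edgeR; -0.67, adjusted p = 6.42e-06, without scramble 3). The call was lost without knockdown 1 (-0.94, adjusted p = 0.0992), knockdown 2 (-0.96, adjusted p = 0.091) or knockdown 3 (-0.83, adjusted p = 0.135). NR1D1 overlaps THRA on the opposite strand, and whether reads were assigned by strand is not given in the sources used here.

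NR1D2 was at 75.7, 79.8 and 32.7 CPM in scramble 1 to 3 and at 51.8, 52.9 and 52.2 CPM in knockdown 1 to 3. Scramble 3 lay below the knockdown libraries and the other scramble libraries above them, so the groups overlapped. NR1D2 therefore did not pass with all libraries (-0.26, SE 0.29, adjusted p = 0.645 by edgeR) and passed without scramble 3 (-0.57, adjusted p = 2.52e-08). Its transcripts are at 39.6% GC and those of NR1D1 at 59.5% GC. In scramble 3 NR1D1 made up 68.1% of the summed NR1D FPKM, against 36.6% to 37.9% in scramble 1 and 2 and 33.1% to 37.1% in knockdown. RORA, the activator on the same element, was low at 0.282 FPKM and did not pass (0.44, adjusted p = 0.299; 0.38, adjusted p = 0.237, without scramble 3). RORA overlaps RORA-AS1, which is antisense to it.

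Among 14 tested clock genes, 0 rose and 6 fell, against 5.89% and 5.64% of all genes, with a median log2 fold change of -0.67. PER1 (-1.07, adjusted p = 0.00418 by edgeR), NPAS2 (-0.92), TEF (-1.26), HLF (-1.06) and DBP (-1.25, adjusted p = 0.0125) fell, and BHLHE41, at 0.222 FPKM, was the remaining member that fell. PER1 and PER2 form the repressive limb of the clock, and DBP, TEF and HLF are output factors under its control. PER2 (-0.50, adjusted p = 0.0733) and PER3 (-0.84, adjusted p = 0.141) did not pass with all libraries. They passed without scramble 3 (-0.39, adjusted p = 3.67e-06, and -1.16, adjusted p = 6.92e-07). HLF lost its call without knockdown 1 or 2 (adjusted p = 0.0615 and 0.0686), DBP without any 1 knockdown library (0.0599 to 0.0628) and NPAS2 without knockdown 3 (0.0501). Whether the call of BHLHE41 held without 1 library other than scramble 3 was not checked. Without scramble 3, 0 of the 14 were higher and 11 lower, against 25.7% and 23.8% of all genes.

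NR1H2 and NR1H3 encode the liver X receptors, which bind oxysterols. NR1H2 was at 51.7, 53.9 and 77.2 CPM in scramble 1 to 3 and at 69.3, 64.2 and 67.2 CPM in knockdown 1 to 3. The knockdown libraries lay between scramble 1 and 2 below and scramble 3 above. It did not pass with all libraries (0.13, SE 0.19, adjusted p = 0.723 by edgeR) and passed without scramble 3 (0.34, adjusted p = 7.48e-05). NR1H3, at a mean of 6.8 FPKM, behaved alike in the test (0.24, adjusted p = 0.57; 0.46, adjusted p = 0.0134, without scramble 3), and it overlaps ACP2 on the opposite strand. Of 10 tested LXR targets, 1 rose and 1 fell, against 5.89% and 5.64% of all genes, with a median of 0.06 over the list. SCD, the stearoyl-CoA desaturase, rose (1.13, adjusted p = 0.00115 by edgeR) and the cholesterol exporter ABCG1 fell (-0.93, adjusted p = 0.0094). The ABCG1 call was lost without any 1 knockdown library (adjusted p = 0.0609 to 0.0734). PLTP did not pass with all libraries (-0.49, adjusted p = 0.148) and passed without scramble 3 (-0.30, adjusted p = 0.0208), and APOC1 passed in neither setting (0.33, adjusted p = 0.523; 0.53, adjusted p = 0.121, without scramble 3).

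NR1H4 encodes FXR, the bile acid receptor of liver and intestine. It was at 1.95, 2.23 and 1.36 CPM in scramble 1 to 3 and at 3.90, 3.70 and 5.17 CPM in knockdown 1 to 3 (Entrez gene 9971, chromosome 12). The groups did not overlap, at a low level throughout. NR1H4 rose 2.31-fold (log2 fold change 1.2, SE 0.27, adjusted p = 0.0191 by edgeR; 1.02, adjusted p = 0.00249, without scramble 3), and the call was lost without knockdown 1 (1.26, adjusted p = 0.06), knockdown 2 (1.28, adjusted p = 0.0538) or knockdown 3 (1.03, adjusted p = 0.104). Of 10 FXR targets, 4 were tested, of which 2 rose and 0 fell, against 5.89% and 5.64% of all genes. Of the others, NR0B2 was listed in no file, and ABCB11 and APOC3 had at most 1 count in a library. SLC51A had 1 to 3 counts, ABCB4 at most 4, and FGF19 4, 3 and 3 in scramble and 0, 1 and 1 in knockdown. SLC51B, the bile acid exporter subunit, went from 1.39, 1.67 and 2.03 CPM to 14.7, 13.6 and 14.0 CPM (log2 fold change 3.05, adjusted p = 3.23e-05), and KNG1, the kininogen gene, rose as well (2.06, adjusted p = 0.00155). ABCC2 (0.16, adjusted p = 0.69; -0.05 without scramble 3) and SDC1 (0.00, adjusted p = 0.995) did not pass with all libraries, and SDC1 passed without scramble 3 (0.20, adjusted p = 0.000106). The xenobiotic receptor NR1I3 did not pass (0.42, adjusted p = 0.482; 0.59, adjusted p = 0.262, without scramble 3), and it overlaps TOMM40L on the opposite strand. Of 4 tested targets of NR1I2 and NR1I3, edgeR with all libraries called 0, with 1 at an unadjusted p under 0.05. It called 11.5% of all genes. DESeq2 and limma-voom called 0 of these targets as well. CYP3A5 was at -0.88 (adjusted p = 0.133) and ABCB1 at 0.70 (adjusted p = 0.273). CYP3A5 was called lower without scramble 3 (-1.19, adjusted p = 5.33e-06), under quality weights (-1.18, adjusted p = 9.11e-07) and under the spline for GC and length (-1.02, adjusted p = 0.0114).

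PPARG, the PPAR of fat storage, fell more than any other receptor. PPARG (Entrez gene 5468, chromosome 3) was at 21.2, 23.4 and 27.8 CPM in scramble 1 to 3 and at 9.20, 8.99 and 8.05 CPM in knockdown 1 to 3. The knockdown libraries were close together and all far below the scramble libraries. Its level fell to 36.3% of the scramble mean (log2 fold change -1.46, SE 0.18, adjusted p = 0.000895 by edgeR; -1.35, adjusted p = 1.44e-09, without scramble 3), and the call held without any 1 library. PPARA, the receptor of fatty acid oxidation, was at 2.31 FPKM and did not pass (-0.13, adjusted p = 0.733; -0.29, adjusted p = 0.00765, without scramble 3, where it passed). The widely expressed PPARD, at 7.01 FPKM, passed in neither setting (-0.02, adjusted p = 0.966; 0.15, adjusted p = 0.295, without scramble 3).

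The make-up of the PPAR family differed between the groups. PPARG held 58.0 ± 1.58% of the summed PPAR FPKM in scramble and 33.5 ± 3.25% in knockdown, and PPARD held 31.0 ± 2.63% and 50.7 ± 3.84% (SD, n = 3 each). PPARG was thus the most abundant of the 3 in each scramble library and PPARD in each knockdown library. The sum was 22.8 ± 2.04 FPKM in scramble and 13.6 ± 0.838 FPKM in knockdown. Of 10 tested PPAR targets, 2 rose and 3 fell, against 5.89% and 5.64% of all genes, with a median log2 fold change of -0.19. Among those that rose was PDK4, a kinase that restrains glucose oxidation (1.30, adjusted p = 0.0183 by edgeR). TXNIP (-1.41, adjusted p = 0.000741), ANGPTL4 (-1.0, adjusted p = 0.0131) and the lipid droplet gene PLIN2 (-1.15, adjusted p = 0.0202) fell. PDK4, ANGPTL4 and PLIN2 lost their calls without any 1 knockdown library (adjusted p = 0.0567 to 0.107). ACADM (0.60, adjusted p = 0.182) and CPT1A (-0.33, adjusted p = 0.243) did not pass with all libraries. They passed without scramble 3 (0.34, adjusted p = 0.00113, and -0.19, adjusted p = 0.00149).

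The 3 retinoic acid receptors moved in different directions. RARA (Entrez gene 5914, chromosome 17) was at 47.6, 52.5 and 68.4 CPM in scramble 1 to 3 and at 25.3, 30.1 and 28.4 CPM in knockdown 1 to 3. RARG (Entrez gene 5916, chromosome 12) was at 33.3, 36.8 and 49.9 CPM in scramble and 23.3, 23.5 and 25.1 CPM in knockdown. RARB (Entrez gene 5915, chromosome 3), itself a target of retinoic acid through the DR5 shown above, was at 22.4, 24.0 and 13.6 CPM in scramble and 35.5, 35.2 and 39.2 CPM in knockdown. The groups overlapped in none of the 3 genes, and scramble 3 was the library furthest from the knockdown libraries in each. RARA fell to 49.8% of its scramble mean (log2 fold change -1.01, SE 0.19, adjusted p = 0.00808 by edgeR) and RARG to 60.0% (-0.74, SE 0.19, adjusted p = 0.0355), while RARB rose 1.83-fold (0.87, SE 0.22, adjusted p = 0.033). Without scramble 3 the values were -0.84, -0.55 and 0.66 (adjusted p = 6.77e-09, 6.67e-06 and 6.32e-07). RARA lost its call without knockdown 1 (adjusted p = 0.0663) or knockdown 3 (0.0567), RARG without scramble 2 (0.0623) or any 1 knockdown library (0.139 to 0.168), and RARB without scramble 1 (0.056) or any 1 knockdown library (0.113 to 0.145).

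RARA shares exon sequence with RARA-AS1 on the opposite strand, which fell too (-1.09, adjusted p = 0.0095 by edgeR), and RARB with TOP2B, which did not pass (0.71, adjusted p = 0.148; 0.41, adjusted p = 8.77e-08, without scramble 3). Reads of such pairs cannot be told apart unless counting used strand. RARB held 17.6 ± 6.27% of the summed RAR FPKM in scramble, 21.4%, 21.0% and 10.3% in the 3 libraries, and 41.0 ± 1.47% in knockdown. RARA, which held 44.6 ± 2.93% in scramble, held 29.1 ± 1.62% in knockdown, so RARB was the most abundant RAR in each knockdown library. The summed RAR level was 37.2 ± 3.31 FPKM in scramble and 27.5 ± 1.66 FPKM in knockdown. RXRA and RXRB, the shared partners, passed in neither setting, with log2 fold changes of -0.23 (adjusted p = 0.478) and -0.15 (adjusted p = 0.699) with all libraries and -0.05 (adjusted p = 0.454) and 0.06 (adjusted p = 0.527) without scramble 3. RXRB shares exon sequence with SLC39A7 on the other strand.

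**Figure D4:**
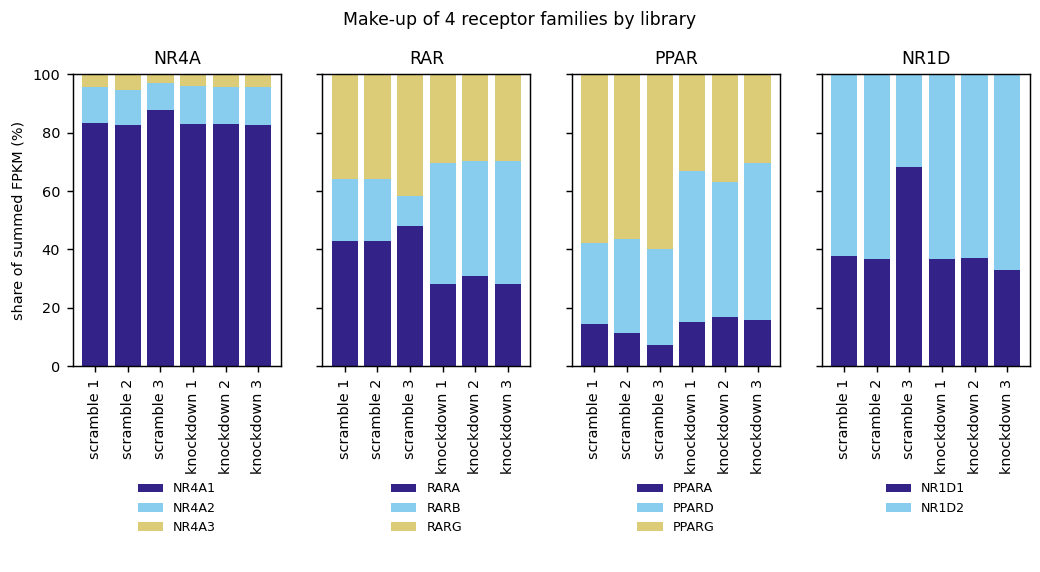
Share of each member in the summed FPKM of 4 receptor families, for each of the 6 libraries. NR4A shares are alike in both groups, RARB and PPARD take larger shares in the knockdown libraries, and NR1D1 takes 68.1% in scramble 3 against at most 37.9% in the other libraries.

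Of 11 tested retinoic acid targets and genes of retinoid metabolism, 2 rose and 3 fell, against 5.89% and 5.64% of all genes. Their median log2 fold change was -0.07. The transglutaminase TGM2 (1.42, adjusted p = 0.000997 by edgeR) and CYP26B1, which breaks down retinoic acid (1.03, adjusted p = 0.0086), rose. DHRS3, which returns retinal to retinol (-1.50, adjusted p = 0.00157), the retinol transporter STRA6 (-1.09, adjusted p = 0.00461) and ALDH1A3, which makes retinoic acid (-0.60, adjusted p = 0.0384), fell. PLAAT4 (-1.23, adjusted p = 0.0886) and RDH10 (-0.37, adjusted p = 0.166) did not pass with all libraries. RDH10 passed without scramble 3 (-0.37, adjusted p = 0.000196) and under the spline (-0.44, adjusted p = 0.00502), and PLAAT4 under the spline (-1.16, adjusted p = 0.0232). ALDH1A1, which also makes retinoic acid, was named after its values were seen; at a mean of 2540 FPKM, against 4.95 FPKM for ALDH1A3, it passed in neither setting (0.16, adjusted p = 0.683; -0.05, adjusted p = 0.0933, without scramble 3). ALDH1A3 lost its call without any 1 library other than scramble 3 (adjusted p = 0.0837 to 0.225), with the replicate block (0.0849), with DESeq2 (0.0608) and with no filter on low counts (0.0546). CYP26B1 lost it without knockdown 1 or 2 (0.0509 and 0.0501).

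THRB, the thyroid hormone receptor beta, was at 4.09, 3.81 and 2.03 CPM in scramble 1 to 3 and at 10, 8.99 and 10.2 CPM in knockdown 1 to 3 (Entrez gene 7068, chromosome 3). Every knockdown library was above every scramble library, although the gene was under 1 FPKM on average. THRB rose 2.94-fold (log2 fold change 1.55, SE 0.25, adjusted p = 0.00447 by edgeR; 1.30, adjusted p = 1.28e-06, without scramble 3), and the call held without any 1 library. THRB-AS1, which overlaps it, had at most 3 counts in a library. THRA, the more abundant thyroid hormone receptor at 10.2 FPKM, passed in neither setting (-0.19, adjusted p = 0.549; -0.07, adjusted p = 0.543, without scramble 3). THRB thus held 3.98 ± 1.65% of the summed THR FPKM in scramble and 11.8 ± 1.22% in knockdown (SD, n = 3 each), while THRA remained the larger part in each library.

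VDR, the vitamin D receptor, was at 3.90, 4.83 and 4.84 CPM in scramble 1 to 3 and at 1.30, 2.90 and 2.98 CPM in knockdown 1 to 3. The groups did not overlap. VDR did not pass with all libraries (log2 fold change -0.91, SE 0.30, adjusted p = 0.0899 by edgeR) and passed without scramble 3 (-0.86, adjusted p = 0.0144). Of 5 tested thyroid hormone targets and deiodinases, 2 rose and 1 fell, against 5.89% and 5.64% of all genes. HR (1.2, adjusted p = 0.00285 by edgeR) and DIO2, the deiodinase that activates thyroid hormone (2.16, adjusted p = 0.0167, at 0.232 FPKM), rose. KLF9 fell (-1.15, adjusted p = 0.0297). ME1 did not pass with all libraries (-0.18, adjusted p = 0.547) and passed without scramble 3 (-0.31, adjusted p = 2.75e-05). Of 3 tested vitamin D targets, 1 rose and 1 fell, against the same shares of all genes. Thrombomodulin THBD rose (2.84, adjusted p = 8.08e-05 by edgeR) and CYP24A1, which inactivates vitamin D, fell (-0.60, adjusted p = 0.00969). SERPINB1 did not pass with all libraries (0.12, adjusted p = 0.678) and passed without scramble 3 (0.19, adjusted p = 0.00459). CYP24A1 was abundant, at 4278, 4372 and 4223 CPM in scramble and 2911, 2845 and 2739 CPM in knockdown, although VDR was at 0.737 FPKM. The CYP24A1 call was lost without any 1 knockdown library (adjusted p = 0.071 to 0.0918), that of KLF9 without any 1 library other than scramble 3 (0.0822 to 0.13) and with limma-voom (0.056), and that of DIO2 without knockdown 1 or 3 (0.0616 and 0.0803).

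NR3C1, the glucocorticoid receptor, was at 236, 236 and 98.9 CPM in scramble 1 to 3 and at 219, 224 and 235 CPM in knockdown 1 to 3. Scramble 3 was lower than every other library, and scramble 1 and 2 lay slightly above the knockdown libraries. NR3C1 passed in neither setting, with a log2 fold change of 0.25 (SE 0.29, adjusted p = 0.663 by edgeR) that turned to -0.06 (SE 0.04, adjusted p = 0.212) without scramble 3. Its transcripts are at 40.8% GC. The mineralocorticoid receptor NR3C2 was under 2.10 CPM in each library and passed in neither setting (0.81, adjusted p = 0.175; 0.59, adjusted p = 0.194, without scramble 3). ESR1 and PGR were at or near 0, as given above.

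Targets of NR3C1 changed in both directions. Of 17 tested, 2 rose and 6 fell, against 5.89% and 5.64% of all genes, with a median log2 fold change of -0.29. TSC22D3 (also called GILZ) fell from 131, 138 and 209 CPM to 57.1, 51.8 and 59.8 CPM (-1.50, adjusted p = 0.00177 by edgeR), and PER1 (-1.07, adjusted p = 0.00418), TFCP2L1 (-1.15, adjusted p = 0.00533) and the metallothionein MT2A (-1.11, adjusted p = 0.00744) fell. SGK1, a kinase, rose from 26.3, 23.2 and 22.7 CPM to 98.6, 93.4 and 92.6 CPM (1.98, adjusted p = 7.51e-05), and the phosphatase DUSP1 rose (0.87, adjusted p = 0.0127). The remaining members that fell were ANGPTL4 and KLF9, whose values stand above. ERRFI1 (-0.33, adjusted p = 0.153) and BCL6 (0.36, adjusted p = 0.206) did not pass with all libraries. They passed without scramble 3 (-0.38, adjusted p = 5.3e-09, and 0.44, adjusted p = 0.00349). MT2A lost its call without knockdown 2 (adjusted p = 0.0587). Whether the call of DUSP1 held without 1 library other than scramble 3 was not checked. Without scramble 3, 5 of the 17 were higher and 8 lower, against 25.7% and 23.8% of all genes. Of 8 tested chaperones of steroid receptors, 2 rose and 0 fell, against 5.89% and 5.64% of all genes with all libraries. HSP90AA1 (1.58, adjusted p = 0.00317 by edgeR) and HSPA8 (1.14, adjusted p = 0.00183) rose. HSP90AB1 (0.35, adjusted p = 0.132) and FKBP5 (-0.29, adjusted p = 0.428) did not pass with all libraries. They passed without scramble 3 (0.45, adjusted p = 8.64e-12, and -0.48, adjusted p = 2.35e-06).

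ESRRA, an orphan receptor that drives mitochondrial genes, was at 50.6, 52.5 and 80.6 CPM in scramble 1 to 3 and at 87.1, 83.5 and 84.0 CPM in knockdown 1 to 3. The groups did not overlap, and scramble 3 lay just under the knockdown libraries. It did not pass with all libraries (0.47, SE 0.20, adjusted p = 0.18 by edgeR) and passed without scramble 3 (0.72, SE 0.06, adjusted p = 6.67e-10). Its transcripts are at 63.8% GC, and it shares exon sequence with TRMT112 on the other strand. TRMT112 did not pass with all libraries (-0.01, adjusted p = 0.972) and passed without scramble 3 (0.16, adjusted p = 0.0116). Of 8 tested estrogen receptor targets, 1 rose and 3 fell, against 5.89% and 5.64% of all genes. In these cells ESR1 was at or near 0. TFF1, a secreted trefoil peptide, was under 0.50 CPM in scramble and rose to 3.00, 3.39 and 2.38 CPM (2.81, adjusted p = 0.00073), while the growth factor AREG (-1.07, adjusted p = 0.00205), XBP1 (-0.86, adjusted p = 0.0118) and RARA, given above, fell. CCND1 (0.37, adjusted p = 0.148) and GREB1 (-0.48, adjusted p = 0.212) did not pass with all libraries. They passed without scramble 3 (0.46, adjusted p = 1.04e-08, and -0.44, adjusted p = 0.0382). The XBP1 call was lost without any 1 knockdown library (adjusted p = 0.0711 to 0.0843).

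NR2F2 (COUP-TFII), a regulator of vessel and mesenchyme development, was at 26.8, 29.6 and 25.7 CPM in scramble 1 to 3 and at 54.1, 58.0 and 50.3 CPM in knockdown 1 to 3 (Entrez gene 7026, chromosome 15). The groups did not overlap, and scramble 3 was close to scramble 1 and 2. NR2F2 rose 1.98-fold (log2 fold change 0.98, SE 0.16, adjusted p = 0.00379 by edgeR; 0.94, adjusted p = 1.09e-09, without scramble 3), and the call held without any 1 library. Its relatives NR2F1 (3.65 FPKM; -0.28, adjusted p = 0.498) and NR2F6 (20.2 FPKM; -0.02, adjusted p = 0.966) passed in neither setting, and without scramble 3 they were at -0.01 (adjusted p = 0.971) and 0.14 (adjusted p = 0.117). NR2F2 made up 18.6 ± 3.69% of the summed NR2F FPKM in scramble and 32 ± 2.04% in knockdown. NR2F1 overlaps NR2F1-AS1, which fell (-1.06, adjusted p = 0.0119).

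NR5A2 (LRH-1), a receptor of liver, gut and pancreas, was at 21.3, 22.2 and 10.8 CPM in scramble 1 to 3 and at 10.6, 11.6 and 9.64 CPM in knockdown 1 to 3. Scramble 3 lay among the knockdown libraries and apart from the other scramble libraries. NR5A2 did not pass by edgeR with all libraries (-0.77, SE 0.27, adjusted p = 0.103). It passed once scramble 3 was left out (-1.03, SE 0.11, adjusted p = 5.64e-08). Its transcripts are at 40.4% GC. The testicular receptors NR2C1 (6.69 FPKM; 0.52, adjusted p = 0.163) and NR2C2 (11.8 FPKM; 0.39, adjusted p = 0.365) did not pass with all libraries and passed without scramble 3 (0.33, adjusted p = 0.00763, and 0.14, adjusted p = 0.0263). NR2C2 overlaps FGD5-AS1 and MRPS25 on the opposite strand, of which MRPS25 rose (0.63, adjusted p = 0.0238). The photoreceptor gene NR2E3 (0.15, adjusted p = 0.777; 0.20, adjusted p = 0.648, without scramble 3) and the germ cell factor NR6A1 (-0.08, adjusted p = 0.811; -0.07, adjusted p = 0.657, without scramble 3) passed in neither setting.

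NR0B1 (DAX1), which lacks the DNA-binding domain and represses other receptors, above all NR5A family members, was at 71.0, 70.0 and 93.1 CPM in scramble 1 to 3 and at 34.8, 31.3 and 38.0 CPM in knockdown 1 to 3 (Entrez gene 190, chromosome X). The knockdown libraries were all below the scramble libraries. NR0B1 fell to 44.5% of its scramble mean (log2 fold change -1.17, SE 0.18, adjusted p = 0.0031 by edgeR; -1.02, adjusted p = 4.73e-11, without scramble 3), and the call held without any 1 library. It was the most abundant receptor in the scramble libraries, at 46.8, 46.4 and 57.0 FPKM, and NR4A1 was in the knockdown libraries, where NR0B1 was at 21.5, 19.3 and 23.6 FPKM.

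Coregulators of the receptors passed the test with all libraries at shares near that of all genes, 11.5%. Of 13 tested coactivators 1 rose and 0 fell (7.69% called), and of 10 corepressors 1 rose and 0 fell (10% called). Their median log2 fold changes were -0.22 and -0.06. PPARGC1A, the coactivator of PPAR and ESRR proteins in mitochondrial gene control, was at 50.6, 51.2 and 20.3 CPM in scramble and 103, 105 and 113 CPM in knockdown (1.39, SE 0.31, adjusted p = 0.0186 by edgeR; 1.07, adjusted p = 8.62e-13, without scramble 3). Its call was lost without any 1 knockdown library (adjusted p = 0.06 to 0.0754). HR, a corepressor of thyroid hormone, vitamin D and ROR receptors, rose from 21.2, 21.9 and 29.3 CPM to 58.8, 51.2 and 56.2 CPM. PRMT1 (-0.48, adjusted p = 0.128), CARM1 (-0.38, adjusted p = 0.235), HDAC3 (-0.18, adjusted p = 0.647) and SIN3A (0.14, adjusted p = 0.664) did not pass with all libraries, and PRMT1 and CARM1 passed without scramble 3 (-0.28, adjusted p = 1.88e-05, and -0.19, adjusted p = 0.0118). Without scramble 3, 1 coactivator was higher and 11 lower, and 3 corepressors were higher and 4 lower, against 25.7% of all genes higher and 23.8% lower. In that setting the genes called higher and lower were 6 and 1 of 8 chaperones, 3 and 2 of 10 LXR targets, 3 and 0 of 4 FXR targets and 3 and 5 of 10 PPAR targets. They were 2 and 4 of 11 retinoid genes, 2 and 1 of 3 vitamin D targets, 2 and 3 of 5 thyroid genes, 3 and 4 of 8 estrogen receptor targets and 2 and 1 of 6 targets of NR1I2 and NR1I3. Over the 14 lists, 121 genes other than the receptors were tested with all libraries. Of these, 17 rose and 26 fell, or 35.5% called, where 11.5% of all genes were. Several genes stand in more than 1 list. The lists were chosen with earlier results of these data known, so these shares do not test them.

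**Figure D5:**
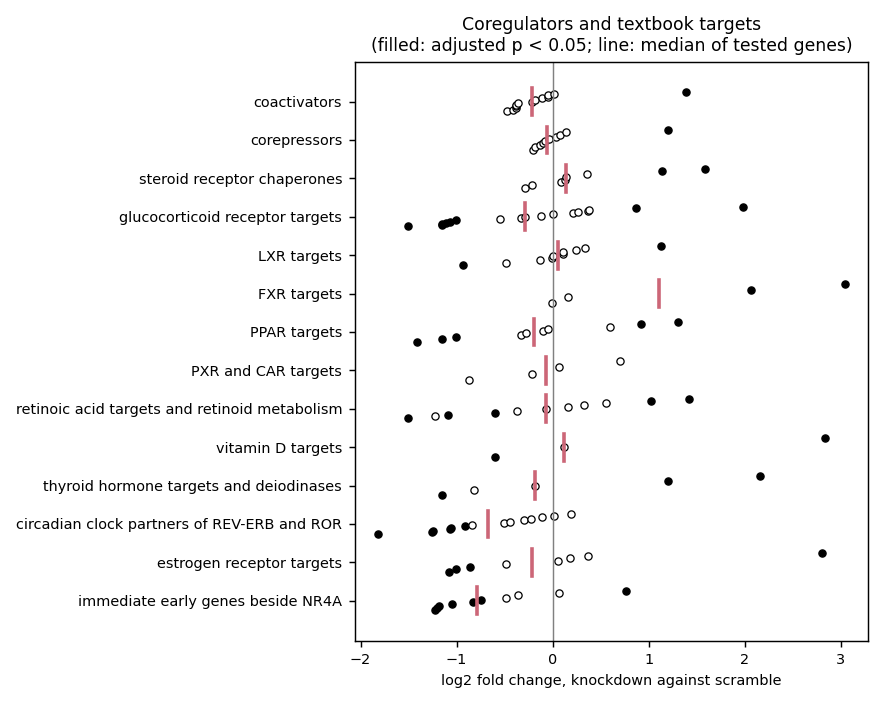
Log2 fold change, knockdown against scramble with all 6 libraries, of the tested genes in each list of coregulators and textbook targets, filled where the adjusted p is below 0.05, with a red line at the median of each list. The medians of the immediate early (-0.79) and clock lists (-0.67) lie furthest below 0.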

How the data were processed

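RNA of 6 A549 libraries was analysed, 3 with a scrambled shRNA and 3 with an shRNA against C19orf12, grouped by their labels. The submitters' processing notes name RSEM, Bowtie2, BWA and the build hg19. Versions, annotation and any use of strand: not given in the sources used here. The deposited files hold expected counts per gene, which RSEM estimates and which need not be whole. They also hold FPKM values that the authors scaled for length and depth, and, per the file headers, each gene's mean transcript length. Genes missing from a file were set to 0 counts. Of 20824 Entrez IDs, 20727 were matched to symbols by a GRCh38 gene table, and the other 97 held 0.147% of counts. Apart from the GRCh38.p14 stretches upstream of transcript starts, no gene positions are given, since the builds differ.

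Expected counts were rounded and tested with edgeR 4.0.16 in R 4.3.3 (filterByExpr with a minimum count of 10, TMM, quasi-likelihood test, no covariates), with Benjamini-Hochberg adjustment over 14812 genes, or 15029 without scramble 3. A gene was called at an adjusted p under 0.05. SE is the log2 fold change divided by the square root of F, and CPM are scaled by TMM. Replicates varied by an estimated 18.9% (coefficient of variation), or 2.97% once scramble 3 was left out. Counts limit the precision of genes near the filter, and limits for 0 counts cover counting error only. GC content came from GENCODE transcripts and promoter windows from RefSeq (GRCh38.p14). Overlaps between strands came from GENCODE exons.

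Values in every library are given for C19orf12, for called members, for members called only without scramble 3 and changed at least 2-fold, and for the 5 with the highest FPKM. NR1D2 and VDR were added after their values were seen. Of each companion list, up to 5 called and 2 uncalled genes with the smallest p-values are named; BHLHE41, EGR1, FOS and DUSP1 also appear to complete their lists, and genes antisense to a member where its reads may be shared. Apart from members, the added genes were not followed when a library other than scramble 3 was left out. Some genes that the rule takes are left out of the text. Members and lists were chosen with earlier results of these data known. Alternatives were DESeq2 1.42.0, limma 3.58.1 voom with and without quality weights, other scalings and filters, a spline for GC and length, the replicate block and leaving out each library. Known fold changes in simulated counts were used to test the fit. Software for tables and plots was Python 3.11.15 with numpy 2.4.6, pandas 2.3.3 and matplotlib 3.10.9.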

Additional observations from a re-analysis of the deposited data

How the results depend on the processing

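The 12 receptor calls held with DESeq2, limma-voom, RLE or upper-quartile scaling, all genes unfiltered, and genes kept at 1 CPM or more in 3 libraries. The scalings, the filters, the weights and the spline moved the median of all genes by at most 0.06 on the log2 scale. Library quality weights gave 7585 called genes, 21 receptors and 89 companion genes, and the spline for GC and length, on 14231 genes, gave 4865, 19 and 71. The 12 were among the receptors called in both. PPARGC1A had no GC value and was not in the spline fit.

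Leaving out 1 library at a time gave 729 to 7439 genes, 7 to 21 receptors and 24 to 93 companion genes, with the highest counts without scramble 3 and the lowest without a knockdown library. Expressed receptors numbered 27 to 28 and receptors with a shifted length 0 in each of these. Expressed receptors numbered 31 at 0.5 FPKM, 26 at 2 FPKM, 25 where each library had to reach 1 FPKM and 33 at a mean of 1 CPM.

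The deviations of same-numbered libraries correlated at -0.024, -0.018 and -0.023. These values cannot decide whether the numbers pair the libraries, since the shift of the scramble library that stood apart could hide a shared deviation. With the replicate block 1654 genes and 13 receptors were called, VDR being added (-0.96, adjusted p = 0.0469 by edgeR), and 42 companion genes.

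Some log2 fold changes near 0 changed sign. Under quality weights they were 0.15 for PPARD, 0.057 for RXRB, -0.056 for NR3C1, 0.14 for NR2F6, 0.049 for HDAC3, -0.046 for ABCC2 and 0.20 for SDC1. Under the spline they were 0.064 for PPARD, 0.12 for NR2F6, 0.086 for SDC1 and -0.04 for SERPINB1. SDC1 was at 0.021 with the replicate block and with limma-voom. With 1 library left out, PPARD ran from -0.17 to 0.15, RXRB from -0.26 to 0.062, NR3C1 from -0.063 to 0.42, NR2F6 from -0.11 to 0.14, HDAC3 from -0.32 to 0.057, ABCC2 from -0.052 to 0.29 and SDC1 from -0.11 to 0.20. The cause of these changes was not tested.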
